A study of Homo sapiens with 12 samples.

Results

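Among 30808 genes with at least 1 count, 51 make up the DNA replication and nucleotide supply genes described here. They were taken from a fixed list of genes for origin licensing, the replicative helicase, DNA polymerases, the sliding clamp and its loader, deoxynucleotide synthesis and chromatin assembly, by name and not by a threshold on their values, and each matched a single Ensembl ID in the count table. All 51 are protein coding and they lie on 20 chromosomes. The cells were SW1783, an established line from a human astrocytoma, and 3 RNA sequencing libraries were made for each of 4 groups. Vehicle cells were given PBS with 2% DMSO for 24 h. A water extract of Aconitum carmichaeli Debeaux (ACD) was applied for the same time at 20 µg/mL (low dose), 100 µg/mL (medium dose) or 500 µg/mL (high dose). Per the study's methods, its stock was also prepared in PBS with 2% DMSO, so 2% is the share in the added solution and not in the culture. Titles and treatment labels are the source of the extract's name, since the treatment protocol filed with the samples describes another herb, Poria cocos. All groups are the same single line without any labelled genetic change, and nothing in the labels says whether the libraries of a group came from separate cultures, so p-values measure the spread between libraries, which may be technical.

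Replication is prepared in G1, when the origin recognition complex (ORC), CDC6 and CDT1 load the MCM ring onto DNA, a step called licensing. In S phase, CDC45 and the GINS complex turn the ring into an active helicase, the polymerases copy both strands behind it, the PCNA clamp holds them on DNA, and ribonucleotide reductase and thymidylate synthase supply deoxynucleotides. Many of these genes are transcribed mainly around the G1/S boundary through E2F factors, so their summed RNA in a culture is used as a readout of cycling.

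Total counts per library lay between 18863852 and 24200565. The mitochondrially encoded share of counts differed between groups, from 5.03-5.29% in vehicle libraries to 6.45-7.56%, 10.6-10.8% and 8.99-9.29% at the low, medium and high dose, and its part in the changes below was not tested. Of the fixed astrocyte and glioma markers, VIM, CD44 and SOX9 were abundant in every library, whereas GFAP did not exceed 5.26 normalised counts and AQP4 was at 0 throughout. Of that list of 12, 3 markers had at most 3 counts in every library, and at the high dose 2 were lower and 1 a higher differentially expressed gene (DEG, adjusted p under 0.05 in DESeq2's Wald test against vehicle and a fold change over 1.5). Among all genes tested 9.57% were lower DEGs there and 18.2% DEGs in either direction. SLC1A3 went from a mean of 690.1 in vehicle to 126.3 at the high dose and NES from 214.3 to 64.66, while OLIG2 read 0 to 2.63 in vehicle libraries and 21.5 to 27.8 at the high dose. The 6 fibroblast and mesenchymal markers were abundant and all 6 fell at the high dose, where 22.6% of all genes tested did. Their summed normalised counts were 114800-119500 in vehicle and 29300-31640 at the high dose, and COL1A1 and COL1A2 made up most of that sum. LUM and DCN fell least, with log2 fold changes of -0.59 and -0.41, and DCN was not a DEG. Of 6 epithelial markers KRT18 made up most of a sum that went from 4924-5120 in vehicle to 1900-1960 at the high dose, while EPCAM and CDH1 did not exceed 4.19 and 2.32. In that list KRT18 and KRT8 were lower DEGs at the high dose (log2 fold changes of -1.55 and -0.59) and CLDN4 was a higher DEG (0.86). Sums of the neuron, leukocyte and endothelial lists at the high dose were 1312-1404, 3946-4231 and 626-698, beside 1503-1552, 3151-3317 and 605-626 in vehicle. Members of the neuron and leukocyte lists moved both ways at the high dose. SNAP25, PTPRC and CSF1R were lower DEGs (log2 fold changes of -2.07, -1.71 and -1.14) and MAP2 was a higher DEG (0.83). SYT1 and CD68 rose by less than 1.5-fold (0.44 and 0.47). In the endothelial list 0 genes had an adjusted p under 0.05 there. CD68 made up most of the leukocyte sum. The part of these markers in the results was not tested. The 51 genes were well covered, with mean normalised counts (counts divided by DESeq2 size factors) between 229.2 and 4395. Within a group of 3 libraries the SD was 3.45% of the mean at the median over genes and groups, and at most 11.9%.

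Most replication genes were lower at the high dose. UHRF1, RRM2, MCM10, ORC1, MCM3, TYMS, CLSPN, FEN1 and PCNA lay at 28.4% to 49.5% of their vehicle means, while ORC3, CDC6 and RFC1 lay above theirs. A gene is said to have fallen or risen where the Benjamini-Hochberg adjusted p of the DESeq2 Wald test was under 0.05, and it is called a differentially expressed gene (DEG) where its fold change was also over 1.5. At the high dose 20 of the 51 genes were DEGs, all lower, beside 9.57% of all genes tested that were DEGs in that direction and 18.2% in either. By adjusted p alone 40 fell, 3 rose and 8 did not pass, where the shares among all genes tested were 22.6% lower and 23.9% higher. The median log2 fold change of the 51 genes was -0.51, against 0.00 for all 15282 genes whose mean normalised count reached 10. In 44 of them every high dose library lay below every vehicle library, and in 3 every high dose library lay above. Among all 15282 genes those shares were 34.4% and 35.6%. Expression at the high dose ranged from 28.4% of the vehicle mean for UHRF1 to 131% for ORC3. In bulk RNA, fewer cells in S phase and less of these RNAs in each cell cannot be told apart.

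**Figure D1:**
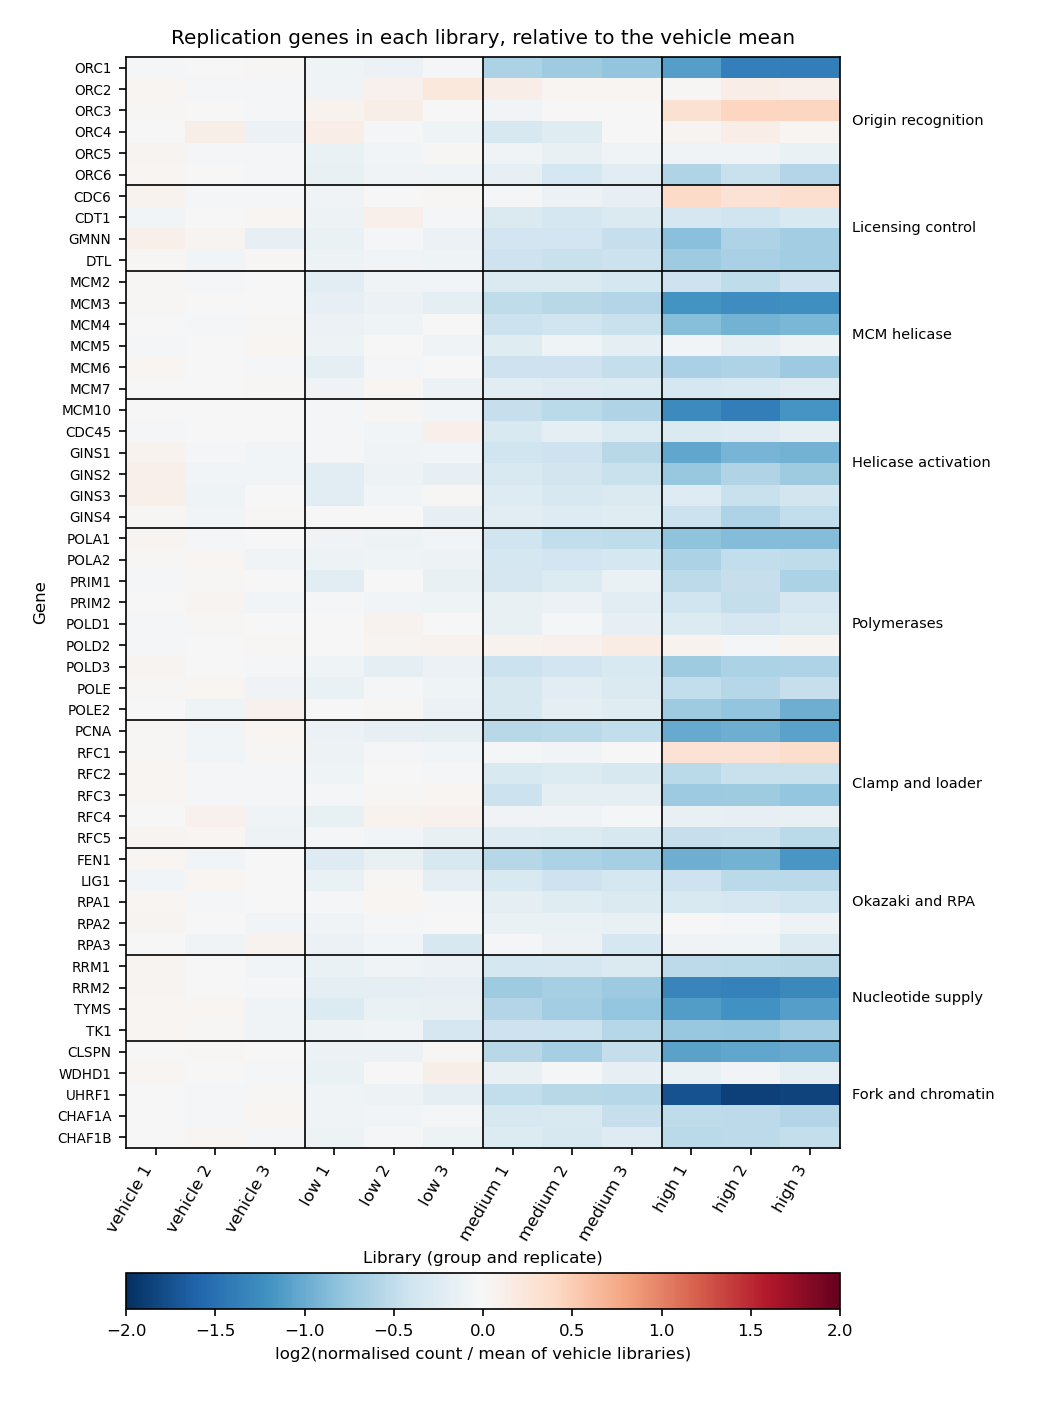
Each row is a replication gene and each column a library; the colour is the log2 ratio of the normalised count to the mean of the 3 vehicle libraries, blue for lower and red for higher. The 3 high dose columns are the darkest, ORC1, MCM3, MCM10, RRM2 and UHRF1 stand out among the rows, and ORC3, CDC6 and RFC1 are the rows that turn red there.

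Falls at the lower doses were smaller. At the medium dose 4 genes were DEGs, all lower (ORC1, FEN1, RRM2 and TYMS), beside 1.48% of all genes tested that were lower DEGs and 3.81% in either direction. By adjusted p alone 37 fell and POLD2 rose, and the shares among all genes were 14.5% and 15.1%. The median was -0.29, and in 42 genes all medium dose libraries lay below all vehicle libraries, beside 24.2% of all genes. At the low dose 0 of the 48 genes with an adjusted p were DEGs, beside 0.118% of all genes tested in either direction and 0.0215% lower. By adjusted p alone 5 fell (MCM3, PCNA, FEN1, RRM2 and TYMS) and 0 rose, where 1.24% of all genes fell and 2.05% rose. In 15 genes all low dose libraries lay below all vehicle libraries, beside 10.3% of all genes. The count at an unadjusted p under 0.05 was 9, all lower, and the share of all genes at that limit is not given here. With edgeR 0 of the genes were DEGs as well, beside 0.188% of all genes. ORC1, GINS3 and POLE2 were left without an adjusted p at the low dose by the filter on low means. In 42 of 51 genes the fitted low dose change was below 0, beside 48.7% of all genes, with a median of -0.07. Group means fell at each step from vehicle through the low and medium to the high dose in 36 of the 51 genes, beside 19.2% of all genes. The doses share their vehicle libraries, so they are given side by side and not as repeats of each other.

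**Figure D2:**
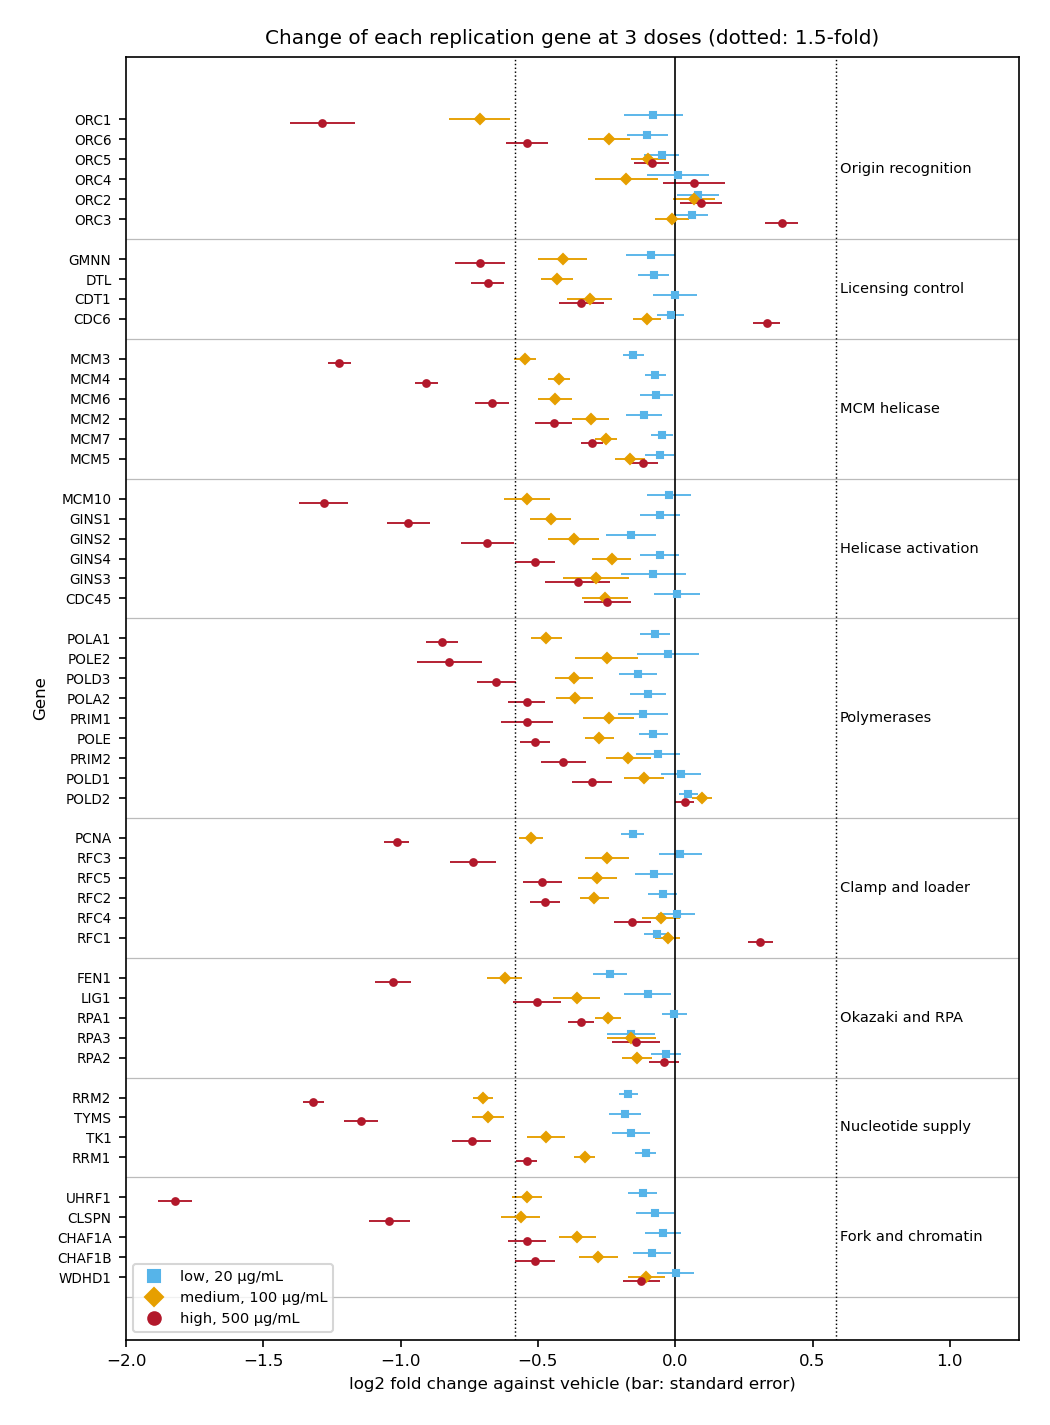
Points are the log2 fold changes of each replication gene against vehicle at the low (square), medium (diamond) and high (circle) dose, with bars for the standard error of DESeq2 and dotted lines at a fold of 1.5; genes are grouped by role and ordered by the high dose value. Low dose points lie near 0, medium dose points reach -0.71 for ORC1, and high dose points spread from -1.82 for UHRF1 to 0.39 for ORC3.

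Promoters were read from RefSeq (GRCh38.p14) over 250 bases before and 50 bases after each start. Of the 51 genes 45 had an entry, with 58 promoters in all. MCM4, MCM5, GINS4, POLD3, RPA2 and RPA3 had none. Letters typical of E2F sites (TTTCGCGC, TTTGGCGC, TTTCCCGC or TTTGCCGC, on either strand) were in 23 of the 58 promoters (39.7%), beside 3.31% of all 35116 promoters and 4.83% of 13035 promoters of other protein-coding genes whose mean normalised count reached 100. CCAAT, the core of NF-Y sites, was in 58.6% of them on either strand, beside 34.6% of all promoters. TTTGAA or TTCGAA, the letters of CHR elements, were in 3.45%, beside 16.4%. The 22 genes with an E2F-type match had a median log2 fold change of -0.68 at the high dose and the 23 without had -0.47, which is a description with no test. ORC1, MCM10, FEN1, RRM2 and TK1 were DEGs at the high dose without such a match in this window, and CDC6 and ORC3, which rose, held it. A match is not a site shown to be bound.

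Bases before the start are shown for the genes described in full below that hold an E2F-type match outside annotated exons, so that a reader can see where it lies. The match is in capitals, each line runs 5′ to 3′ on the gene's strand, and coordinates are those of GRCh38.p14. The UHRF1 stretch is chr19:4909944-4910143 (plus strand), that of MCM3 chr6:52284882-52284942 (minus), that of TYMS chr18:657453-657652 (plus), that of PCNA chr20:5126627-5126822 (minus) and that of POLA1 chrX:24693718-24693872 (plus). The first base of the match lies 160, 174, 39, 59 and 137 bases before the RefSeq start in that order. That start can differ from the gene coordinates given below. Further matches, at -4 in MCM3 and at -14 in another UHRF1 promoter, are not printed. The TYMS stretch also overlaps exons of TYMSOS, a non-coding gene on the opposite strand.
UHRF1: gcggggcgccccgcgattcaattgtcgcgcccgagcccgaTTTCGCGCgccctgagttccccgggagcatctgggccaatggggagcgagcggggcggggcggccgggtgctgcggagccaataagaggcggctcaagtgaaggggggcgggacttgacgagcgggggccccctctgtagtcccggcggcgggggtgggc
MCM3: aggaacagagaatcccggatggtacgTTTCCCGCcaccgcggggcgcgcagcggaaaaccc
TYMS: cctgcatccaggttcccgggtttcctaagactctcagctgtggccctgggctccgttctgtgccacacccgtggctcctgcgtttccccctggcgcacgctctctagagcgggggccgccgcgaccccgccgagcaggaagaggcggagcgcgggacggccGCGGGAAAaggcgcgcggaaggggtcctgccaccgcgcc
PCNA: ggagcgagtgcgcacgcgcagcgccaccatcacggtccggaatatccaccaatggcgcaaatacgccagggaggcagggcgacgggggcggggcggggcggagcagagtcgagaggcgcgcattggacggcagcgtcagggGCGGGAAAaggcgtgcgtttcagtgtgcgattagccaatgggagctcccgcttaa
POLA1: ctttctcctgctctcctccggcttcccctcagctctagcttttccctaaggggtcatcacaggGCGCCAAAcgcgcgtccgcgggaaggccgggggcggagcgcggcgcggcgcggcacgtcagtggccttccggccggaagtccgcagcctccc

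**Figure D3:**
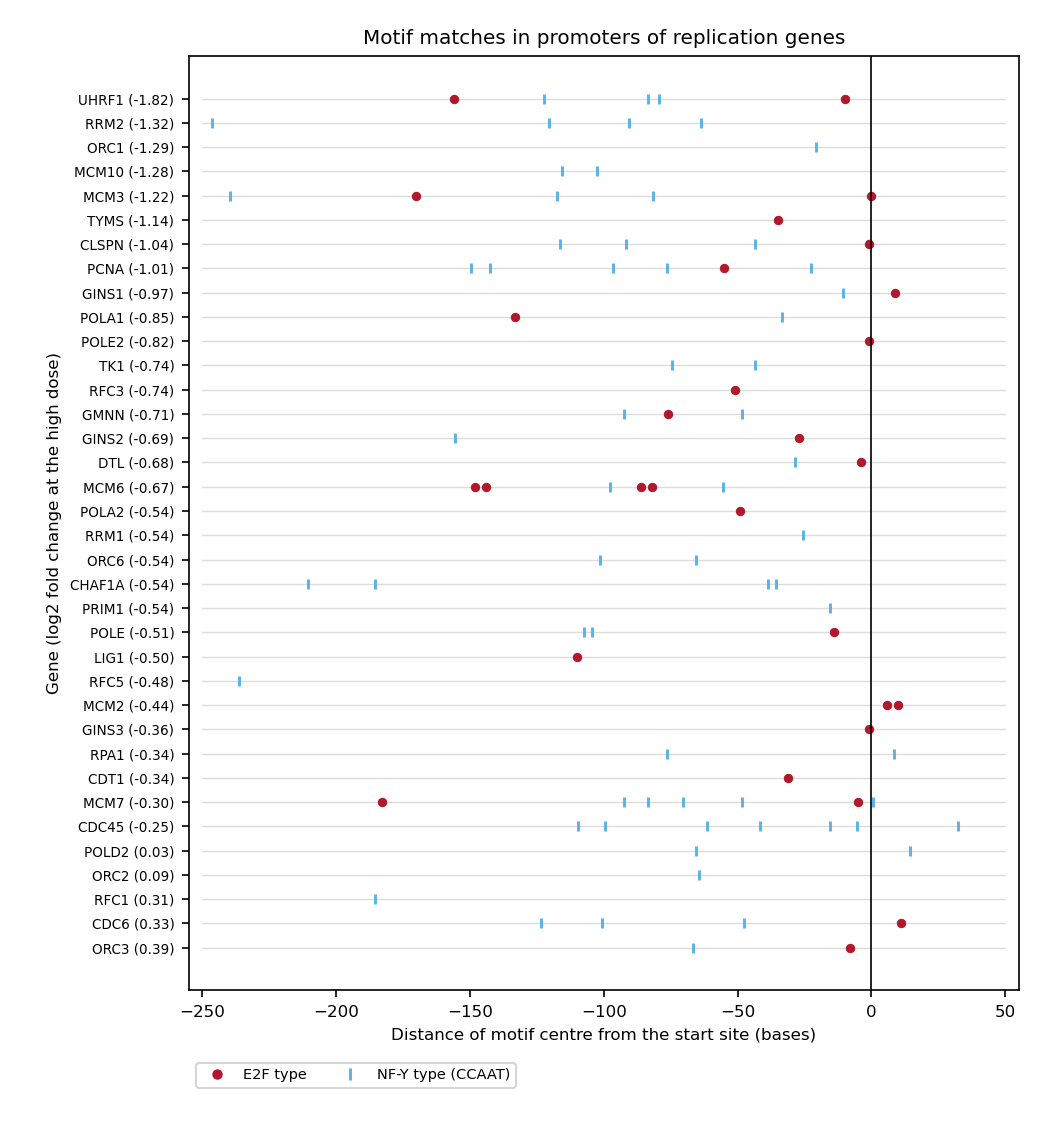
Rows are the 36 replication genes whose promoters held a match, ordered by log2 fold change at the high dose (in brackets); the horizontal axis is the distance in bases of the centre of the match from the RefSeq start, over all promoters of a gene. E2F-type matches (circles) and CCAAT matches (bars) are found both among the genes that fell most and in CDC6 and ORC3, which rose.

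Origin recognition genes behaved unevenly. ORC binds origins and marks where the helicase is loaded. Of its 6 subunits, ORC1 and ORC6 fell at the high dose, ORC3 rose and ORC2, ORC4 and ORC5 did not pass. ORC1 (ENSG00000085840, chr1:52372829-52404423, minus strand), the ATPase subunit whose amount varies over the cell cycle, had normalised counts of 334, 343 and 349 in the vehicle libraries, 322, 314 and 334 at the low dose, 220.2, 208 and 199 at the medium dose and 159.8, 132 and 131 at the high dose. Its groups did not overlap at any dose, and it fell to 41.3% of the vehicle mean at the high dose (log2 fold change -1.29, SE 0.119, adjusted p = 4.15e-26) and to 61.1% at the medium dose (log2 fold change -0.71, SE 0.112, adjusted p = 4.17e-09). ORC6, the smallest subunit, had normalised counts of 734, 708 and 695 in vehicle, 642, 679 and 671 at the low, 633, 561 and 616 at the medium and 471, 524 and 472 at the high dose. All its high dose libraries lay below all vehicle libraries, at 68.7% of the vehicle mean, short of the fold of a DEG (log2 fold change -0.54, SE 0.0771, adjusted p = 1.71e-11). ORC4, another ATPase-type subunit, had normalised counts of 304, 333 and 281 in vehicle, 337, 301 and 288 at the low, 245, 260 and 306 at the medium and 317, 334 and 313 at the high dose. The ORC4 groups overlapped at each dose (log2 fold change 0.07, SE 0.113, adjusted p = 0.664), with a 95% interval of the high dose change from -0.15 to 0.29. ORC3 rose from 924 ± 20.4 to 1207 ± 54.8 (SD, n = 3) at the high dose (log2 fold change 0.39, SE 0.0594, adjusted p = 4.22e-10) and is named after its values were seen. ORC2 and ORC5 lay at 106% and 94.2% of the vehicle mean there.

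Licensing control genes moved both ways. CDC6, an ATPase that helps ORC load the MCM ring, was the member of this group that rose, whereas geminin (GMNN), the inhibitor of CDT1, DTL, which targets CDT1 for destruction in S phase, and CDT1 itself fell at the high dose. CDC6 (ENSG00000094804, chr17:40287879-40304657, plus strand) had normalised counts of 1898, 1748 and 1769 in vehicle, 1723, 1802 and 1825 at the low, 1771, 1657 and 1612 at the medium and 2363, 2194 and 2267 at the high dose. Its high dose libraries all lay above the vehicle libraries (log2 fold change 0.33, SE 0.0498, adjusted p = 1.42e-10), while the low and medium groups overlapped vehicle. The high dose also lay above the medium dose (log2 fold change 0.44, SE 0.0502, adjusted p = 4.8e-17). GMNN counts were 622, 604 and 519 in vehicle, 533, 573 and 536 at the low, 447, 447 and 421 at the medium and 326, 380.2 and 358 at the high dose. The low dose overlapped vehicle and the higher doses did not, and GMNN was a lower DEG at the high dose (log2 fold change -0.71, SE 0.0918, adjusted p = 7.95e-14). DTL counts were 1193, 1128 and 1194 in vehicle, 1096, 1130 and 1101 at the low, 882, 858 and 866 at the medium and 718, 744 and 723 at the high dose. DTL fell to 74.2% of vehicle at the medium and 62.2% at the high dose (log2 fold change -0.68, SE 0.0589, adjusted p = 5.58e-30). CDT1 reached 80.7% and 79.0% at those doses, and the difference between those doses did not pass (log2 fold change -0.03, SE 0.0837, adjusted p = 0.817).

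At the high dose the subunits of the MCM ring ranged from MCM3, the lowest, to MCM5, which did not pass. The ring's 6 members form the core of the helicase in equal number. At the high dose 5 of the 6 fell, 3 of them as DEGs (MCM3, MCM4 and MCM6). The shares among all genes tested were 22.6% that fell and 9.57% that were lower DEGs. MCM3 (ENSG00000112118, chr6:52264014-52284881, minus strand) had normalised counts of 3137, 3095 and 3073 in vehicle, 2783, 2874 and 2712 at the low, 2184, 2122 and 2069 at the medium and 1352, 1314 and 1322 at the high dose. No MCM3 library of any dose overlapped vehicle, and the gene fell to 89.9%, 68.5% and 42.9% of the vehicle mean (log2 fold change -0.15, SE 0.0389, adjusted p = 0.00571 at the low and log2 fold change -1.22, SE 0.0422, adjusted p = 1.01e-182 at the high dose). MCM4 counts were 3502, 3396 and 3509 in vehicle, 3197, 3259 and 3437 at the low, 2586, 2621 and 2549 at the medium and 1922, 1798 and 1840 at the high dose. At the high dose MCM4 lay at 53.4% of vehicle (log2 fold change -0.91, SE 0.0408, adjusted p = 1.94e-107). MCM5 counts were 1693, 1717 and 1774 in vehicle, 1605, 1734 and 1646 at the low, 1465, 1627 and 1525 at the medium and 1667, 1505 and 1615 at the high dose. Its high dose libraries all lay below the vehicle libraries but by little (log2 fold change -0.12, SE 0.0537, adjusted p = 0.0631), and its unadjusted 95% interval ran from -0.22 to -0.01. At the medium dose MCM5 fell without overlap with vehicle (log2 fold change -0.17, SE 0.0538, adjusted p = 0.01). MCM6 lay at 63.0%, MCM2 at 73.6% and MCM7 at 80.9% of vehicle at the high dose. Of the exon bases of MCM2, 23.6% overlap a gene transcribed the other way, and the strand setting of the counting is not given in the sources used here.

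Genes of helicase activation fell together. All 6 fell at the high dose, and MCM10, GINS1 and GINS2 were DEGs. Of all genes tested 22.6% fell there and 9.57% were lower DEGs. MCM10 (ENSG00000065328, chr10:13161558-13211110, plus strand), which is needed to start unwinding and is distinct from the ring subunits, had normalised counts of 592, 598 and 596 in vehicle, 582, 607 and 571 at the low, 431, 408 and 392 at the medium and 245, 229 and 262 at the high dose. Low dose libraries overlapped vehicle, while medium and high dose libraries lay below (log2 fold change -1.28, SE 0.0896, adjusted p = 6.2e-45). GINS1, a GINS subunit, had 796, 745 and 728 in vehicle, 735, 717 and 730.4 at the low, 574, 569 and 515 at the medium and 367, 396 and 392 at the high dose. GINS1 fell to 73.1% at the medium and 50.9% at the high dose (log2 fold change -0.97, SE 0.0782, adjusted p = 2.96e-34). CDC45, the other partner of the ring in the active helicase, had 483, 492 and 493 in vehicle, 476, 473 and 525 at the low, 394, 428 and 406 at the medium and 402, 409 and 426 at the high dose. CDC45 fell by little, to 83.6% at the medium and 84.2% at the high dose (log2 fold change -0.25, SE 0.0848, adjusted p = 0.00913), and the difference between those doses did not pass (log2 fold change 0.01, SE 0.0866, adjusted p = 0.95). GINS2, GINS4 and GINS3 lay at 62.0%, 70.3% and 78.3% of vehicle at the high dose. Genes transcribed the other way overlap 23.4% of the exon bases of GINS4 and 10.9% of those of GINS3.

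**Figure D4:**
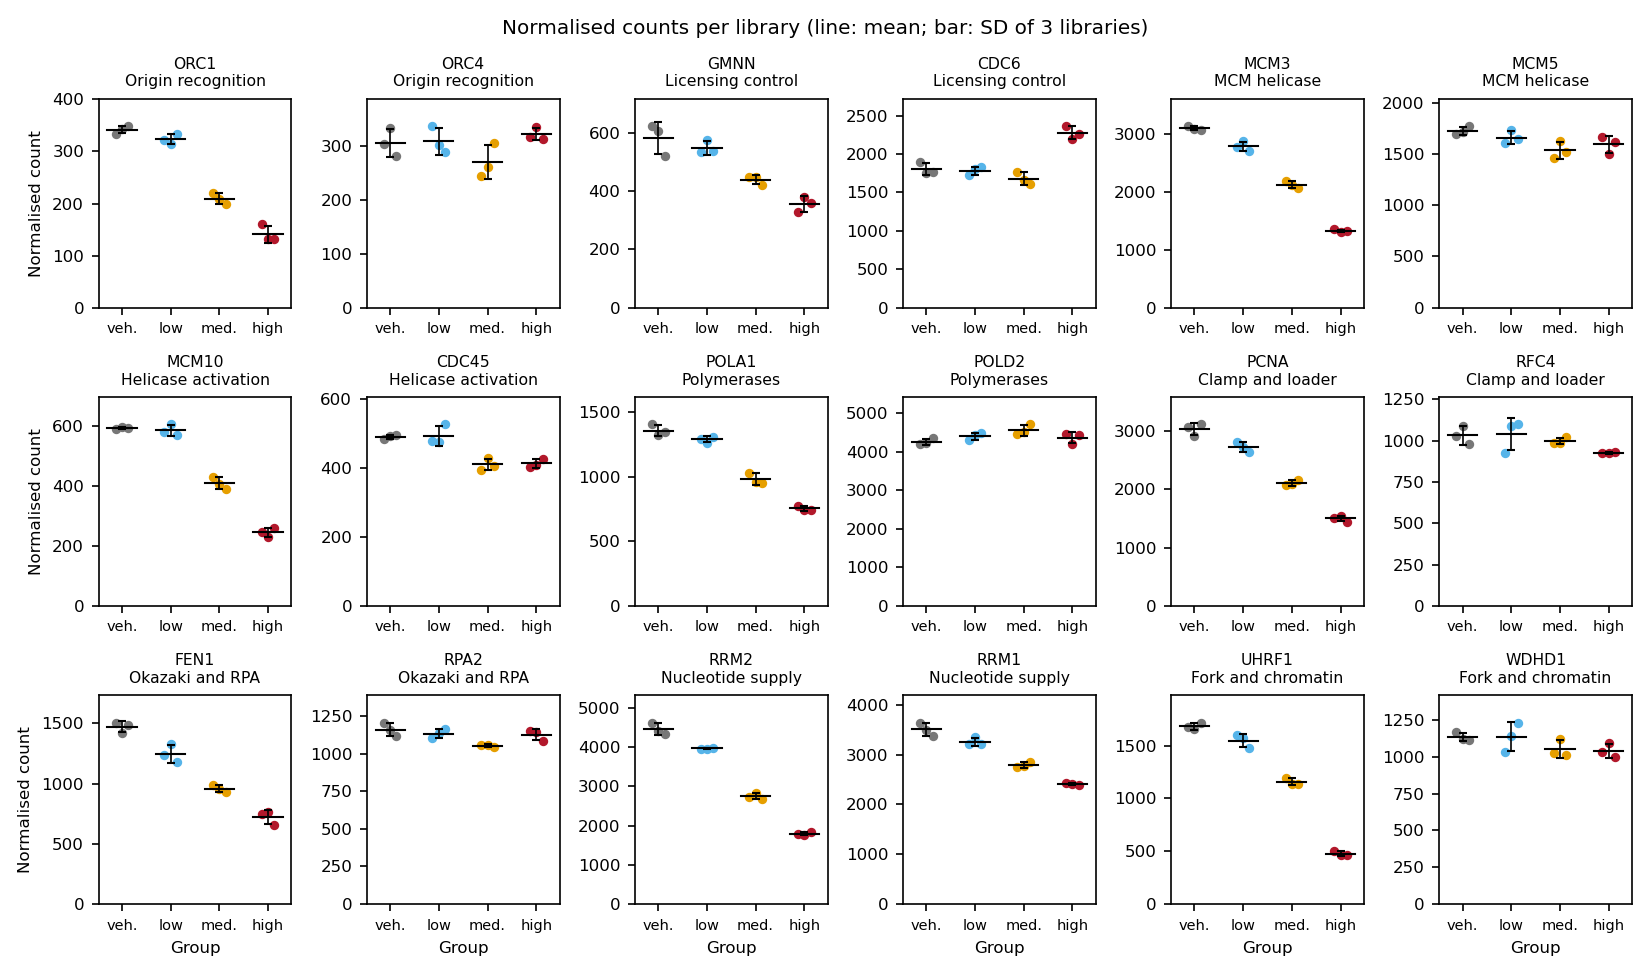
Normalised counts in every library for the gene with the largest and the gene with the smallest change in each role group, on axes that start at 0; the line is the mean and the bar the SD of 3 libraries. ORC1, GMNN, MCM3, MCM10, POLA1, PCNA, FEN1, RRM2 and UHRF1 step down from vehicle to the high dose, while ORC4, MCM5, POLD2, RFC4, RPA2 and WDHD1 stay close to vehicle, CDC45 and RRM1 fall by less than 1.5-fold, and CDC6 is higher at the high dose.

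At the high dose 22.6% of all genes tested fell and 9.57% were lower DEGs. Polymerase genes fell there in 8 of 9 cases, with 3 DEGs. They form the primase-polymerase alpha complex (POLA1, POLA2, PRIM1, PRIM2), which lays down primers, polymerase delta (POLD1, POLD2, POLD3) for the lagging strand and polymerase epsilon (POLE, POLE2) for the leading strand. POLA1 (ENSG00000101868, chrX:24693873-24996986, plus strand), the catalytic subunit of polymerase alpha, had normalised counts of 1405, 1321 and 1346 in vehicle, 1294, 1264 and 1308 at the low, 1032, 962 and 951 at the medium and 774, 744 and 744 at the high dose. No dose overlapped vehicle, and POLA1 lay at 55.6% at the high dose (log2 fold change -0.85, SE 0.058, adjusted p = 4.49e-47). Its low dose change did not pass (log2 fold change -0.07, SE 0.0547, adjusted p = 0.594). POLE2, an accessory subunit, had 291, 275 and 310.1 in vehicle, 292, 298 and 268 at the low, 233, 256 and 246 at the medium and 178, 169 and 149 at the high dose. POLE2 fell to 56.6% at the high dose (log2 fold change -0.82, SE 0.12, adjusted p = 4.73e-11), while its medium dose change did not pass (log2 fold change -0.25, SE 0.114, adjusted p = 0.0859) although those libraries lay below vehicle. POLD2, an accessory subunit of polymerase delta, had 4197, 4228 and 4352 in vehicle, 4297, 4424 and 4486 at the low, 4451, 4501 and 4712 at the medium and 4465, 4196 and 4433 at the high dose. POLD2 did not pass at the high dose (log2 fold change 0.03, SE 0.0353, adjusted p = 0.46; 95% interval -0.03 to 0.10) and rose slightly at the medium dose (log2 fold change 0.10, SE 0.0353, adjusted p = 0.0228). POLD3, a further accessory subunit, was a DEG at 63.6% of vehicle. The catalytic subunits POLE and POLD1 lay at 70.3% and 81.1%, and PRIM1, POLA2 and PRIM2 at 68.9%, 68.6% and 75.5%.

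The clamp gene and 1 of 5 loader genes were lower DEGs at the high dose, beside 9.57% of all genes tested. PCNA (ENSG00000132646, chr20:5114953-5126626, minus strand), the ring that tethers polymerases and many repair enzymes, had normalised counts of 3072, 2915 and 3117 in vehicle, 2810, 2721 and 2637 at the low, 2069, 2089 and 2164 at the medium and 1514, 1541 and 1448 at the high dose. Each dose lay below vehicle without overlap, at 89.7%, 69.5% and 49.5% of its mean (log2 fold change -0.16, SE 0.0425, adjusted p = 0.0119 at the low and log2 fold change -1.01, SE 0.0448, adjusted p = 6.44e-112 at the high dose). The loader genes RFC1 to RFC5 were spread more widely. RFC3, a small loader subunit, had 675, 649 and 647 in vehicle, 648, 671 and 678 at the low, 490.3, 583 and 580.5 at the medium and 398, 401 and 384 at the high dose. It was a DEG at the high dose (log2 fold change -0.74, SE 0.0821, adjusted p = 3.01e-18), and its low dose libraries overlapped vehicle. RFC4, another small subunit, had 1028, 1091 and 978 in vehicle, 927, 1088 and 1098 at the low, 985, 985 and 1020 at the medium and 927, 922 and 934 at the high dose. RFC4 lay at 89.8% of vehicle and just passed (log2 fold change -0.16, SE 0.0681, adjusted p = 0.0478). RFC5 and RFC2 lay at 71.6% and 71.9%, both below the fold of a DEG, and 10.7% of RFC5's exon bases overlap a gene transcribed the other way. RFC1, the large subunit, rose from 1756 ± 51.9 to 2176 ± 48.8 (SD, n = 3; log2 fold change 0.31, SE 0.0442, adjusted p = 1.5e-11) and is named after its values were seen.

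Okazaki fragment and single-strand binding genes differed among themselves. FEN1 (ENSG00000168496, chr11:61792911-61797238, plus strand), the flap nuclease that trims primers from lagging strand fragments, had normalised counts of 1507, 1424 and 1489 in vehicle, 1235, 1331 and 1182 at the low, 992, 954 and 929 at the medium and 747, 764 and 658 at the high dose. FEN1 fell at every dose without overlap (log2 fold change -0.24, SE 0.0626, adjusted p = 0.00824 at the low, log2 fold change -0.62, SE 0.064, adjusted p = 1.46e-20 at the medium and log2 fold change -1.03, SE 0.0657, adjusted p = 9.52e-54 at the high dose). LIG1, the ligase that joins those fragments, had 542, 577 and 563 in vehicle, 512, 570.2 and 488 at the low, 454, 420.3 and 440.1 at the medium and 420.2, 385 and 384 at the high dose. LIG1 lay at 70.7% of vehicle at the high dose (log2 fold change -0.50, SE 0.0867, adjusted p = 3.06e-08). RPA2, the middle subunit of the single-strand DNA binding complex RPA, had 1206, 1154 and 1118 in vehicle, 1103, 1136 and 1160 at the low, 1055, 1060 and 1045 at the medium and 1150, 1144 and 1086 at the high dose. At the high dose its libraries overlapped vehicle (log2 fold change -0.04, SE 0.0553, adjusted p = 0.584; 95% interval -0.15 to 0.07), while the medium dose lay slightly below (log2 fold change -0.14, SE 0.0557, adjusted p = 0.0451). RPA1, the large subunit, fell to 78.8%, and RPA3 did not pass at any dose.

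Nucleotide supply genes had the lowest median of the 9 role groups, -0.94 at the high dose, and all 4 fell there. The share of all genes tested that fell was 22.6%. RRM2 (ENSG00000171848, chr2:10120698-10211725, plus strand), the small subunit of ribonucleotide reductase that is made in S phase, had normalised counts of 4629, 4426 and 4349 in vehicle, 3965, 3965 and 3976 at the low, 2734, 2831 and 2690 at the medium and 1794, 1753 and 1830 at the high dose. RRM2 fell without overlap at every dose, to 88.8%, 61.6% and 40.1% of the vehicle mean (log2 fold change -0.17, SE 0.0355, adjusted p = 0.000172 at the low, log2 fold change -0.70, SE 0.0365, adjusted p = 3.98e-79 at the medium and log2 fold change -1.32, SE 0.0383, adjusted p = 2.69e-257 at the high dose). TYMS (ENSG00000176890, chr18:657653-673578, plus strand), thymidylate synthase, which makes dTMP, had 1871, 1877 and 1742 in vehicle, 1512, 1669 and 1654 at the low, 1222, 1133 and 1074 at the medium and 845, 791 and 849 at the high dose. TYMS fell to 88.1%, 62.5% and 45.3% (log2 fold change -0.18, SE 0.0583, adjusted p = 0.0483 at the low and log2 fold change -1.14, SE 0.0616, adjusted p = 1.97e-75 at the high dose). Genes transcribed the other way overlap 47.9% of its exon bases. RRM1, the large subunit of the reductase, had 3645, 3501 and 3381 in vehicle, 3206, 3347 and 3218 at the low, 2753, 2766 and 2859 at the medium and 2430, 2414 and 2394 at the high dose. RRM1 fell to 68.8% at the high dose, short of a DEG (log2 fold change -0.54, SE 0.0386, adjusted p = 2.47e-43). TK1, the thymidine kinase of the salvage route, was a DEG at 59.8% of vehicle.

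Fork and chromatin genes held the largest fall of all 51. UHRF1 (ENSG00000276043, chr19:4903080-4962154, plus strand), which recognises hemimethylated DNA behind the fork and brings in the maintenance methyltransferase DNMT1, had normalised counts of 1671, 1655 and 1717 in vehicle, 1595, 1572 and 1475 at the low, 1197, 1140 and 1135 at the medium and 502, 462 and 466 at the high dose. No dose overlapped vehicle, and UHRF1 lay at 92.0%, 68.8% and 28.4% of the vehicle mean (log2 fold change -1.82, SE 0.0613, adjusted p = 1.33e-191 at the high dose). Most of that fall lay between the medium and the high dose (log2 fold change -1.28, SE 0.0629, adjusted p = 5.58e-90). The low dose change of UHRF1 did not pass (log2 fold change -0.12, SE 0.0526, adjusted p = 0.257). The deposited UHRF1 value was whole in 0 of the 12 libraries, so it includes reads that were divided among genes. CLSPN, the mediator that links stalled forks to CHK1, had 906, 917 and 899 in vehicle, 833, 833 and 919.8 at the low, 618, 572 and 653 at the medium and 432, 441 and 449.9 at the high dose. CLSPN was a DEG at 48.6% of vehicle (log2 fold change -1.04, SE 0.0745, adjusted p = 5.72e-43). WDHD1, which ties polymerase alpha to the helicase, had 1167, 1123 and 1112 in vehicle, 1035, 1141 and 1233 at the low, 1026, 1121 and 1014 at the medium and 1030, 1092 and 999 at the high dose. WDHD1 did not pass at any dose (log2 fold change -0.12, SE 0.0673, adjusted p = 0.126 at the high dose), with a 95% interval from -0.26 to 0.01. CHAF1A and CHAF1B, subunits of the factor that places histones on new DNA, lay at 68.8% and 70.1%.

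A further 20 genes fell at the high dose without reaching a fold of 1.5. Of all genes tested 22.6% fell there, with the 9.57% that were lower DEGs included. Of the 20 genes 9 had fallen by over 0.5 on the log2 scale, a limit at which all genes were not counted. The number of DEGs therefore rests on where the 1.5-fold limit is set. Over the 51 genes, Spearman's rho between mean normalised count and the high dose log2 change was 0.0403, given as a description.

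The high and medium dose were also compared with each other, with the same high dose libraries as above. MCM3, MCM10, RRM2 and UHRF1 were lower DEGs at the high dose, 4 of 51 genes, beside 5.61% of all genes tested that were lower DEGs and 10.2% in either direction. By adjusted p alone 32 fell and 3 rose (ORC3, CDC6 and RFC1), where the shares of all genes were 19.8% and 21.1%. The median was -0.23. In 36 genes every high dose library lay below every medium dose library and in 5 above, beside 29.1% and 30.1% of all genes. CDT1, MCM2, MCM5, MCM7, CDC45 and RPA1 were among the 16 genes that did not pass between these doses.

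Other genes of replication were read from lists, described by counts with no test of the list. Beside these counts, 9.57% of all genes tested were lower DEGs at the high dose. Of 11 origin firing factors 2 were lower DEGs at the high dose, TICRR (log2 fold change -1.08, SE 0.0985, adjusted p = 8.97e-27), which helps to load CDC45, and CDC7 (log2 fold change -0.79, SE 0.0764, adjusted p = 8.3e-24), the kinase that phosphorylates the MCM ring, with a list median of -0.32. Of 28 other fork and chromatin factors 10 were lower DEGs, with a median of -0.39. The largest falls were in LMNB1 (log2 fold change -1.62, SE 0.055, adjusted p = 3.51e-188), which encodes lamin B1, HELLS (log2 fold change -1.16, SE 0.0791, adjusted p = 2.95e-47), a chromatin remodeller that works in DNA methylation, and ASF1B (log2 fold change -1.07, SE 0.069, adjusted p = 3e-53), a histone chaperone. DNMT1, the partner of UHRF1, fell short of a DEG (log2 fold change -0.46, SE 0.039, adjusted p = 1.13e-30).

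The other nucleotide genes moved in both directions. Of 31, 2 were lower DEGs and 2 higher, with a median of -0.05. Among all genes tested 9.57% were lower DEGs and 18.2% DEGs in either direction, so DEGs were no larger a share of this list. MTHFD2, a mitochondrial enzyme of the folate cycle, read 1860, 1840 and 1830 in vehicle, 1930, 2000 and 1940 at the low, 3610, 3680 and 3580 at the medium and 5440, 5740 and 5580 at the high dose. It rose at the medium dose (log2 fold change 0.98, SE 0.0375, adjusted p = 1.17e-146) and at the high dose (log2 fold change 1.60, SE 0.0366, adjusted p below the smallest number the software stores), and did not pass at the low dose (adjusted p = 0.286). SHMT2, the mitochondrial serine hydroxymethyltransferase that feeds that cycle, read 2130, 2080 and 2130 in vehicle, 2350, 2500 and 2510 at the low, 3310, 3530 and 3630 at the medium and 4320, 4240 and 4610 at the high dose, and also rose (log2 fold change 1.05, SE 0.0442, adjusted p = 9.73e-124). An opposite-strand gene overlaps 14.2% of the exon bases of MTHFD2.

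Genes of G1/S control moved in both directions at the high dose, with 13 of 30 lower and 4 higher DEGs. Among all genes tested 9.57% were lower DEGs and 18.2% DEGs in either direction. The largest changes were in CDKN2C, an inhibitor of CDK4 and CDK6 (log2 fold change -2.11, SE 0.0604, adjusted p = 1.49e-264), E2F2, an activating E2F (log2 fold change -1.87, SE 0.207, adjusted p = 1.39e-18), and E2F7, an E2F that represses transcription (log2 fold change 1.81, SE 0.0341, adjusted p below the smallest number the software stores). E2F7 read 2090, 2080 and 2020 in vehicle, 2190, 2150 and 2240 at the low, 3330, 3290 and 3380 at the medium and 7060, 7330 and 7260 at the high dose, without overlap between the high dose and any other group. An opposite-strand gene overlaps 20.4% of the exon bases of CDKN2C. CDKN1A, which encodes a CDK inhibitor that also binds PCNA, rose at the high dose (log2 fold change 1.44, SE 0.073, adjusted p = 1.6e-84) and did not pass at the medium dose (log2 fold change -0.18, SE 0.0807, adjusted p = 0.0778). The other higher DEGs of this list were CDKN2B (log2 fold change 1.48, SE 0.0593, adjusted p = 2.81e-136) and E2F5 (log2 fold change 0.75, SE 0.105, adjusted p = 9.51e-12). CDKN2B, a further CDK inhibitor gene, was also a higher DEG at the medium dose (log2 fold change 0.62, SE 0.0618, adjusted p = 8.12e-22). CDKN1A, CDKN2B and E2F5 are named after their values were seen.

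The 20 mitotic markers fell as well. At the high dose 16 were lower DEGs and all 20 fell, with a median of -0.78, beside -0.51 for the 51 replication genes. Among all genes tested 9.57% were lower DEGs there and 22.6% fell. At the medium dose 17 fell by adjusted p, where 14.5% of all genes did. The median was -0.25 there, beside -0.29 for the replication genes. At the low dose the median was -0.03, beside -0.07. MKI67 (log2 fold change -1.43, SE 0.0429, adjusted p = 3.54e-243), AURKA (log2 fold change -1.21, SE 0.0508, adjusted p = 3.2e-124) and KIF11 (log2 fold change -1.03, SE 0.0474, adjusted p = 2e-103) had the largest falls. Their summed normalised counts lay at 45460-46760 in vehicle, 44790-45090 at the low, 38220-39110 at the medium and 24920-26590 at the high dose. What part a change in the number of cycling cells had in the fall of the replication genes was not tested.

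**Figure D5:**
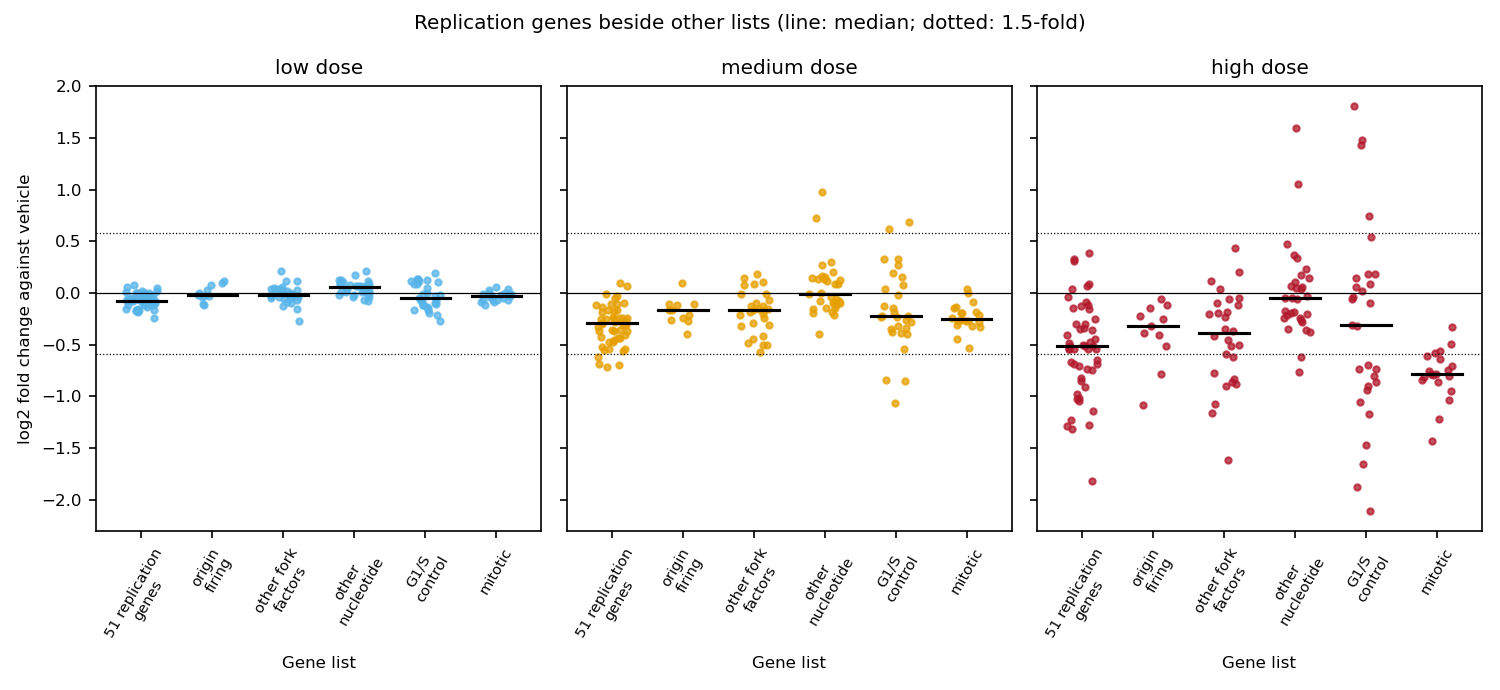
Each point is a gene, placed by its log2 fold change against vehicle at the low, medium and high dose for the 51 replication genes and 5 further lists; the line is the list's median and the dotted lines mark a fold of 1.5. At the high dose the mitotic genes cluster around -0.78 and the replication genes around -0.51, while other nucleotide genes centre near 0 with MTHFD2 at 1.60, and G1/S genes reach from -2.11 to 1.81.

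The genes outside the list whose log2 normalised counts followed MCM2 most closely over the 12 libraries, among 11213 genes, were NID2 (Pearson's r = 0.984), CEP85 (0.984), ALDH18A1 (0.977), GTF3C5 (0.973) and FADS2 (0.971). These 12 points share 4 group means, so the values are a description of likeness across doses.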

How the data were processed

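Per the labels, the authors made directional mRNA libraries, sequenced them as paired ends, checked reads with FastQC 0.11.9, trimmed them with Trim Galore 0.6.5, aligned them to GRCh38 with STAR 2.7.3a and counted genes with RSEM 1.3.3. The study's methods give other versions of the trimmer and aligner, and RSEM's strand setting is not given in the sources used here. The deposited values are expected counts. RSEM divides a read that fits several genes among them, so 8.75% of values were not whole. For 40 of the 51 genes all 12 values were whole. UHRF1, TYMS, ORC4, GINS3, GINS4 and RFC5 had a whole value in 0 of the 12 libraries. Expected counts were rounded here. Symbols and coordinates came from GENCODE v44, which held 93.2% of the 60675 IDs and 99.9% of the counts. Coordinates are 1-based.

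All 12 libraries were fitted together in DESeq2 1.42.0 (R 4.3.3) with group as the only term (the study's tool and thresholds), using two-sided Wald tests, Benjamini-Hochberg adjustment over all genes tested and independent filtering at 0.05. That filtering left means under 1.72, 18.3 and 263 at the high, medium and low dose without an adjusted p. Intervals are 95% Wald intervals. Replicates differed by more than counting noise (chi-square 2.06-3.77 per degree of freedom), so none was merged. In counts simulated for the high dose against vehicle (15303 genes), DESeq2 recovered 179 of 200 known changes, 84 of 100 at 2-fold and 95 of 100 at 4-fold, and, of those with a mean of at least 100, 72 of 72 and 67 of 67. The first pass mark, 90% of all changes, was missed at 89.5%, and the mark was limited to means of at least 100 after that was seen. The spread of the simulated counts was set by a formula. Changes nearer to 1.5-fold were not simulated, so their recovery was not tested. The alternatives were edgeR 4.0.16, other size factors, filters and thresholds, a replicate block, and leaving out each library.

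In each role group the 2 genes with the largest and the 1 with the smallest change at the high dose are given in every library. Of each further list the largest changes among DEGs are named, at most 3 with a mean of at least 50. 1 result that this rule would give is not reported here. The members, lists and rules were chosen with earlier results of these data known, so no test over a list was made. Promoter matches were searched in RefSeq sequences, and printed stretches of at most 200 bases stop where an annotated exon of the gene begins. That stop was chosen after the windows were seen, and it left out RFC3. The log2 limit of 0.5 for genes short of the fold threshold was likewise set after the values were seen, in place of a slightly lower one, and counts genes only as a description.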

Additional observations from a re-analysis of the deposited data

How the results depend on the processing

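The count of 20 lower replication DEGs at the high dose was the same with edgeR, TMM size factors, other filters and the compared groups alone. Without the fold limit, 43 of the genes passed at the high dose, 38 at the medium, 5 at the low and 35 between high and medium, beside 46.5%, 29.5%, 3.29% and 40.9% of all genes tested. When DESeq2 tested against the 1.5-fold limit itself, 12 passed at the high dose (GMNN, DTL, MCM6, GINS2, POLD3, POLE2, RFC3 and TK1 were lost), 1 between high and medium, and 0 at the medium dose, where 1 had an unadjusted p under 0.05 and edgeR called 4 by the usual rule. Of all genes tested, 7.87%, 2.55% and 0.668% passed in these 3 comparisons, so the 1 of 51 between high and medium is no larger a share than that of all genes. The share of all genes at an unadjusted p is not given here. Leaving out each library gave 20 to 21 DEGs at the high dose (ORC6 was gained without high dose replicate 2), 4 to 5 at the medium, 0 at the low and 4 to 6 between high and medium. The medians then lay between -0.53 and -0.50 at the high, -0.31 and -0.27 at the medium, -0.09 and -0.06 at the low dose, and between -0.23 and -0.21 for high against medium. No fold change at the high dose changed sign in any of these alternatives. Replicate numbers were not taken as pairing, since in no comparison made here did all 3 same-numbered pairs correlate over 0.1 in their deviations from group means. Those of vehicle with dosed libraries correlated at or below -0.00687. Among dosed libraries 5 pairs exceeded 0.1, all 3 of low with medium (0.124 to 0.193) included, the highest for different numbers was 0.0981, and 8 of 12 libraries correlated best with their own number, which is a hint from the data and not from the design. A replicate block gave 20, 4, 0 and 4 DEGs for the high, medium and low dose and high against medium, with medians of -0.51, -0.29, -0.07 and -0.23.

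With 3 libraries a group, standard errors of the replication genes' high dose changes were 0.0353 to 0.12 (log2), and changes of -0.12 in MCM5, -0.12 in WDHD1 and -0.14 in RPA3, each larger than its standard error, did not pass. The counts cannot separate cell numbers from RNA per cell, and the extract rests on the sample labels.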

Other observations

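Ratios between partner genes within a library, each gene scaled as normalised counts per kilobase of its canonical transcript, do not depend on the size factors. The pairs were chosen after the values were seen, so they are given as a description with no test. The ratio of MCM3 to MCM5, subunits of the same ring, was 2.09, 2.03 and 1.95 in the vehicle libraries and 0.914, 0.983 and 0.922 at the high dose. The low and medium dose means were 1.89 ± 0.0528 and 1.56 ± 0.108 (SD, n = 3). For the reductase, RRM2 to RRM1 was 1.22, 1.22 and 1.24 in vehicle and 0.712, 0.700 and 0.738 at the high dose. RRM2 to RRM2B, its counterpart outside S phase, went from 6.52 ± 0.278 to 2.70 ± 0.0893, while RRM2B itself did not pass at the high dose (DESeq2 adjusted p = 0.601).

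In licensing, CDC6 to CDT1 was 2.01, 1.78 and 1.75 in vehicle and 3.03, 2.94 and 2.84 at the high dose, and the groups did not overlap. CDT1 to GMNN, the loader and its inhibitor, was 0.421, 0.450 and 0.540 in vehicle and 0.661, 0.543 and 0.616 at the high dose, so the highest vehicle and the lowest high dose library nearly met. ORC1 to ORC2 went from 0.706 ± 0.0321 to 0.275 ± 0.0419 and RFC3 to RFC1 from 0.791 ± 0.0247 to 0.383 ± 0.0168.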
